A study of Homo sapiens with 12 samples.

Results

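The nuclear hormone receptors were followed on whole-genome arrays of 2 hepatocellular carcinoma lines with and without the cytotoxic compound DAAD2. The family was taken as a list of 44 genes, and its members were the probe sets whose only annotated gene symbol is on that list. This gave 125 probe sets of 38 receptor genes, out of 54613 probe sets and 19775 named genes on the array. NR0B1, NR1D1, NR1H2, NR1H4, NR1I2 and NR2F2 had no probe set annotated to them alone and were not analysed here. The 4 groups held 3 arrays each: Hep3B with 2 μM DAAD2, Hep3B with 0.1% DMSO, SNU449 with 20 μM DAAD2 and SNU449 with 0.1% DMSO, all for 72 h. DMSO is the vehicle. For its cytotoxicity screen the study prepared stocks of its compounds in pure DMSO and diluted them in medium, so DAAD2 wells there received some. How much DMSO the DAAD2 plates of these arrays received is not given. A difference in vehicle, which may vary with dose, cannot be told apart from DAAD2. Hep3B and SNU449 are both established human liver cancer lines, and the labels call Hep3B sensitive and SNU449 resistant to the compound. DAAD2 is an amide of the diterpene amine dehydroabietylamine with N-acetyl-L-cysteine. The DAAD2 dose differed between the lines, so line and dose cannot be told apart wherever the DAAD2 arrays of both lines are compared. The labels describe treatment in triplicate. The study speaks of independent experiments for its data in general but does not say so of the arrays, so p-values measure the spread between these arrays, which may be technical.

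Nuclear receptors are transcription factors that bind DNA next to their target genes and change activity when a small lipid-soluble ligand such as a steroid, retinoid, thyroid hormone, fatty acid, oxysterol or bile acid enters their binding pocket. Many work as partners of a retinoid X receptor, and coactivator or corepressor proteins docked on them raise or lower transcription. In the liver they govern bile acid and cholesterol handling, fatty acid oxidation, drug metabolism and the daily rhythm of metabolic genes, and the orphan receptors are those without an established natural ligand.

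Values are log2 levels after RMA (robust multi-array average), and array medians lay between 3.71 and 3.85. Hepatocyte markers separated the lines: over 7 of them the mean log2 level was 9.67 to 9.87 on Hep3B arrays with DAAD2, 9.94 to 10.0 on Hep3B arrays with DMSO, 5.28 to 5.41 on SNU449 arrays with DAAD2 and 4.86 to 5.13 on SNU449 arrays with DMSO. All 7 markers were above the array median on every Hep3B array. In SNU449, 5 of them were above it on every DAAD2 array and 4 on every DMSO array. FGB (fibrinogen beta chain) went against the other markers and was lower in Hep3B, by −4.05 ± 0.18 (SE) with DMSO. Over 6 mesenchymal markers the mean was 7.04 to 7.18 in Hep3B with DAAD2, 6.96 to 7.11 in Hep3B with DMSO, 9.05 to 9.25 in SNU449 with DAAD2 and 8.85 to 8.92 in SNU449 with DMSO. With DMSO, 5 of these were called lower in Hep3B, while FN1 went the other way and was higher by 0.81 ± 0.11. The log2 difference between the 3′ and 5′ GAPDH control probe sets, a sign of RNA degradation, was 1.99 on the second SNU449 DAAD2 array and between 0.34 and 0.97 on the other SNU449 arrays. It was 1.51 on the first Hep3B DMSO array and between 0.45 and 1.05 on the other Hep3B arrays. The same difference for ACTB ran between 1.82 and 3.27 over 12 arrays, highest on the third Hep3B DAAD2 array.

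Of the 38 receptor genes, 25 had their brightest probe set above the array median on all 12 arrays. RORB, RXRG, PGR and NR2E1 were above it on 0 arrays, and 9 genes lay in between. The number above the median on all arrays of a group was 28 in either Hep3B group and 26 in either SNU449 group. A gene is represented below by its probe set of highest mean over the 12 arrays, called its brightest, unless another is named. A gene was called where limma gave an adjusted p under 0.05, with Benjamini-Hochberg adjustment over all probe sets.

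The receptor repertoire differed between the lines mainly through receptors that were higher in Hep3B. With DMSO, 17 receptor genes were higher in Hep3B than in SNU449, 3 were lower and 18 were not called. Of all 19775 genes, 21.4% were called higher and 19.4% lower. Among probe sets, 32 of the 125 were called higher and 7 lower, against 14.5% higher and 14.8% lower of all probe sets. On their brightest probe sets, the 18 genes not called differed by −0.52 to 0.44. Some of them had a dimmer probe set that was called, as given below. In these bulk samples, fewer cells expressing a receptor and less receptor RNA per cell cannot be told apart.

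The largest differences were in receptors of bile acid, sterol and fatty acid metabolism. NR0B2 (small heterodimer partner, an atypical receptor that has no DNA-binding domain and represses bile acid synthesis) read 9.51, 9.94 and 9.49 in Hep3B with DMSO, against 5.16, 4.15 and 4.88 in SNU449 with DMSO. Every Hep3B array lay far above every SNU449 array, and the difference was 4.92 ± 0.24 on the log2 scale (SE, limma adjusted p = 7.46e-07). NR1H3 (liver X receptor alpha, a sensor of oxysterols) read 9.04, 9.11 and 8.63 in Hep3B, against 5.10, 5.59 and 5.31 in SNU449. The groups did not overlap, and the difference was 3.59 ± 0.17 (limma adjusted p = 4.51e-07). PPARA (a fatty acid sensor that drives hepatic fatty acid oxidation) read 7.40, 7.42 and 7.28 in Hep3B, against 4.51, 4.74 and 4.73 in SNU449. Its groups were also separate, with a difference of 2.70 ± 0.10 (limma adjusted p = 1.44e-07). PPARG, known as the master regulator of fat cell formation, was higher in Hep3B by 1.21 ± 0.11 (limma adjusted p = 3.56e-05). PPARD differed by 0.17 ± 0.11 and NR1I3, the xenobiotic receptor CAR, by 0.26 ± 0.19, and neither was called.

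**Figure D1:**
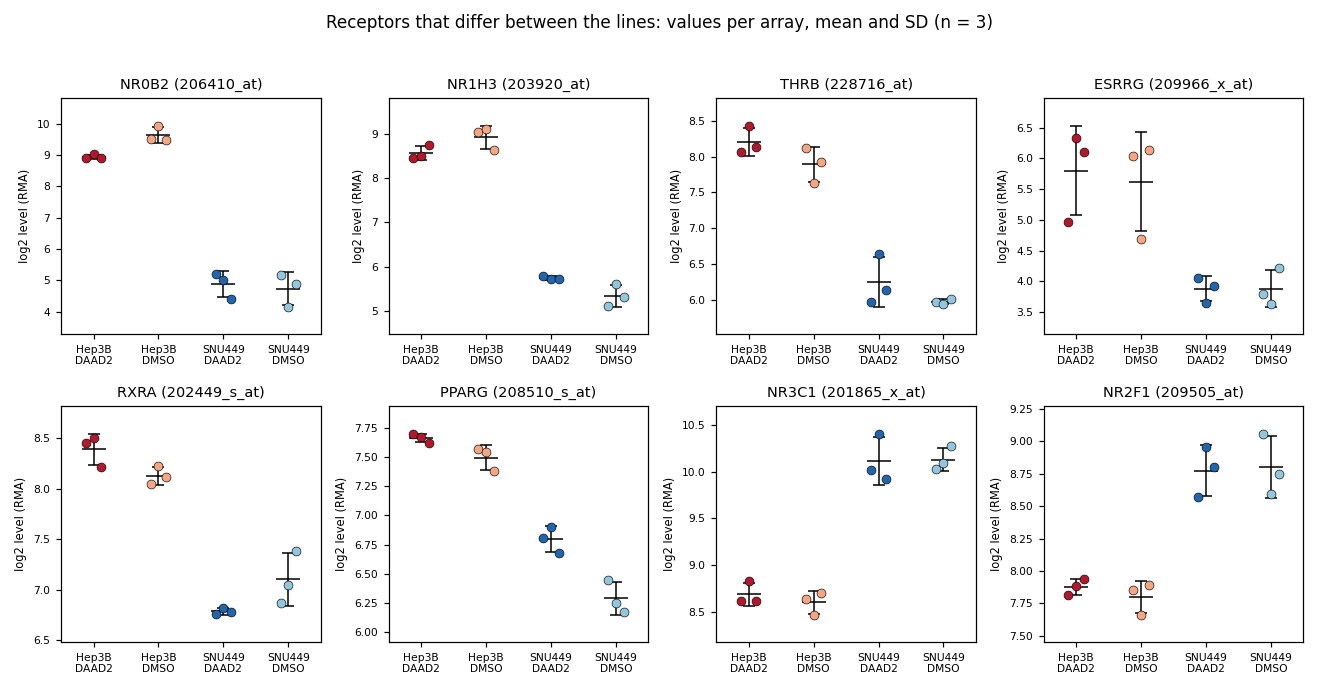
Each panel shows 1 receptor, with the log2 RMA level on the vertical axis and the 4 groups on the horizontal axis. Points are arrays, and the black bars give the mean and SD of 3 arrays. NR0B2, NR1H3, THRB, ESRRG, RXRA and PPARG sit higher in both Hep3B groups, and NR3C1 and NR2F1 sit higher in both SNU449 groups.

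Promoters of 3 receptors with large line differences are shown to place these genes on the genome and to let their composition be compared: NR1H3 and PPARA, higher in Hep3B, and NR3C1, the glucocorticoid receptor, higher in SNU449. Each is the 300 bases from 250 before to 50 after the first RefSeq start listed for the gene on GRCh38.p14. PPARA is at chr22:46150276-46150575 on the plus strand, NR1H3 at chr11:47248050-47248349 on the plus strand and NR3C1 at chr5:143404433-143404732 on the minus strand. RefSeq lists 2 starts for PPARA, 4 for NR1H3 and 7 for NR3C1, and the arrays do not tell which was used. Capitals mark the receptor half-site AGGTCA or the GC box GGGCGG on either strand, and overlapping matches run together.
PPARA: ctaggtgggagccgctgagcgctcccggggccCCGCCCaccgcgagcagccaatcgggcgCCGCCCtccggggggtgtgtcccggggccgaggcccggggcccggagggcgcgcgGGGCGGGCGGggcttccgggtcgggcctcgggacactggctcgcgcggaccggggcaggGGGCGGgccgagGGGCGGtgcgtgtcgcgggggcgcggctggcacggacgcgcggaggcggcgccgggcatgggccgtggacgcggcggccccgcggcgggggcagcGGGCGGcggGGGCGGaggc
NR1H3: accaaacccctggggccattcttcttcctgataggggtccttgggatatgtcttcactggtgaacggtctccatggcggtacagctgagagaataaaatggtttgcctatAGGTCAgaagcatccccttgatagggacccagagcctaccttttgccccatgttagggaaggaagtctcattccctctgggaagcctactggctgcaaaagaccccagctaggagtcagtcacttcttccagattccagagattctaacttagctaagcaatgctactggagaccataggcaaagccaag
NR3C1: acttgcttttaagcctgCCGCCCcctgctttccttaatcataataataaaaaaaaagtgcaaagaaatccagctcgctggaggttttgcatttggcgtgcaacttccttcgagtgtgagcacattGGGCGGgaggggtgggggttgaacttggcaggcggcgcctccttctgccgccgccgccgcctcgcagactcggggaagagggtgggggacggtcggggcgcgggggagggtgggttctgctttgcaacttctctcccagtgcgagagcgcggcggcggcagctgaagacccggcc
The PPARA window was 85.7% G and C with 8 GC boxes and no half-site, and the NR3C1 window was 61.0% with 2 GC boxes and no half-site. The NR1H3 window was 50.3% with 1 half-site, at position −140 from the start, and no GC box. Of 40 listed receptors with a promoter in the RefSeq table, 7 held the half-site (NR0B1, NR1H3, NR1H4, NR5A2, PPARG, RARA and RXRG) and 22 a GC box. Of all 27305 promoters, 13.9% held the half-site and 44.6% the GC box. A match describes the letters in the window and shows no binding.

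Among the receptors of hormones and vitamins, THRB (thyroid hormone receptor beta, the main thyroid receptor of liver) read 8.12, 7.64 and 7.92 in Hep3B with DMSO, against 5.97, 5.94 and 6.01 in SNU449 with DMSO. The lines were separate, with a difference of 1.92 ± 0.13 (limma adjusted p = 5.19e-06). THRA was higher in Hep3B by 0.58 ± 0.11, called on 1 of its 4 probe sets (−0.09 to 0.58). RARA, which binds retinoic acid, was higher by 1.08 ± 0.10, called on 2 of its 5 probe sets (−0.14 to 1.08). RARB differed by −0.38 ± 0.17 and RARG by −0.52 ± 0.19, neither called. VDR, the vitamin D receptor, differed by 0.19 ± 0.16 and was not called. RXRA, the shared partner of many of these receptors, read 8.05, 8.22 and 8.12 in Hep3B, against 6.88, 7.05 and 7.39 in SNU449. Its difference was 1.02 ± 0.14 (limma adjusted p = 0.000442), and RXRB differed by 0.42 ± 0.11, also called, on 1 of its 3 probe sets.

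Of the steroid receptors, only NR3C1 was called lower in Hep3B with DMSO. It read 8.63, 8.47 and 8.71 in Hep3B, against 10.03, 10.09 and 10.27 in SNU449. The groups did not overlap, and the difference was −1.52 ± 0.11 (limma adjusted p = 7.87e-06). Of its 5 probe sets 4 were called lower, by −1.62 to −1.16, and the dimmest, at −0.31, was not called. NR3C2, the mineralocorticoid receptor, was called higher in Hep3B by 1.0 ± 0.30 although the arrays of the lines overlapped. ESR1, ESR2 and PGR, the receptors of oestrogen and progesterone, were within 0.06 of 0 and were not called. Of the 9 ESR1 probe sets, which ran between −0.41 and 0.42, the dimmer 217190_x_at was called higher (limma adjusted p = 0.0486).

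The oestrogen-related receptors, orphans that drive mitochondrial genes, split by member. ESRRG read 6.04, 4.69 and 6.14 in Hep3B with DMSO, against 3.79, 3.63 and 4.21 in SNU449 with DMSO. The second Hep3B array was low, yet above every SNU449 array, and the difference was 1.74 ± 0.35 (limma adjusted p = 0.00474). Its other probe set, 207981_s_at, differed by 3.00 with less spread (6.05, 5.77 and 6.02 in Hep3B, against 3.14, 2.85 and 2.85 in SNU449). ESRRA was higher by 1.13 ± 0.10, and ESRRB differed by −0.08 ± 0.19 and was not called.

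Among the other orphans, NR5A2 (liver receptor homolog, an activator of bile acid synthesis genes) was higher in Hep3B by 1.06 ± 0.14, NR2F6 by 1.0 ± 0.10, NR2C1 by 0.86 ± 0.14 and NR6A1 by 0.62 ± 0.10. Not all their probe sets were called: 1 of 3 for NR2F6, 1 of 4 for NR2C1 (−0.38 to 0.86) and 2 of 7 for NR6A1 (−0.51 to 1.01). NR2F1 (COUP transcription factor, a developmental regulator) ran the other way, with 7.85, 7.66 and 7.89 in Hep3B, against 9.06, 8.60 and 8.75 in SNU449. The arrays were separate and the difference was −1.0 ± 0.14 (limma adjusted p = 0.00046). NR2C2 was called lower by −0.39 ± 0.12 (limma adjusted p = 0.0393), but the call was kept in only 1 of 6 fits that left out an array. NR4A2, an immediate early receptor near the array median, was higher by 0.61 ± 0.18. NR4A1 was not called on its brightest probe set, but 2 of its 3 probe sets were called higher, over a range of 0.26 to 0.72. The clock receptors were not called on their brightest probe sets, and the NR1D2 probe sets disagreed, at 0.44 for 225768_at and −0.66, called, for the dimmer 209750_at. For RORA 1 of 8 probe sets, 226682_at, was called higher, at 0.59, with levels near or below the array median.

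The line difference was measured again on the DAAD2 arrays, which share no array with the DMSO comparison. Of the 38 genes, 15 were higher in Hep3B and 4 lower, against 22.2% and 17.5% of all genes. On these probe sets both comparisons called 16 genes in the same direction, which is 80.0% of the 20 calls with DMSO and 84.2% of the 19 calls with DAAD2, and 0 in opposite directions. NR0B2 was higher in Hep3B by 4.07 ± 0.19, NR1H3 by 2.82 ± 0.12, THRB by 1.96 ± 0.18, ESRRG by 1.93 ± 0.31 and PPARA by 1.73 ± 0.10. RXRA was higher by 1.60 ± 0.11 and NR3C2 by 1.5 ± 0.15, here with separate arrays. NR3C1 was lower by −1.42 ± 0.15, NR2F1 by −0.90 ± 0.12, RARG by −0.73 ± 0.14 and RORA, a clock receptor, by −0.50 ± 0.11. The RORA probe sets disagreed, since the dimmer 210426_x_at at 0.61 and 210479_s_at at 0.48 were called higher. They lay near or below the array medians of 3.71 to 3.85, with the brightest at 3.42 to 3.60 in Hep3B and 3.93 to 4.08 in SNU449. Those of NR2C1 disagreed too, with 1 of 4 called higher and 1 called lower, over a range of −0.42 to 0.51. NR4A1 and VDR were not called on their brightest probe sets, but 1 of 3 and 1 of 4 of their probe sets were called higher. On their brightest probe sets NR4A2, RXRB, NR2C2 and THRA were called with DMSO and not with DAAD2, and NR1D2, RORA and RARG with DAAD2 and not with DMSO. Dimmer probe sets were called with DAAD2 for THRA (204100_at at 0.43), NR2C2 (206038_s_at at 0.39, opposite to the DMSO call above) and RXRB (215098_at at −0.60). The interaction between line and treatment called none of these 7 genes on any probe set.

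**Figure D2:**
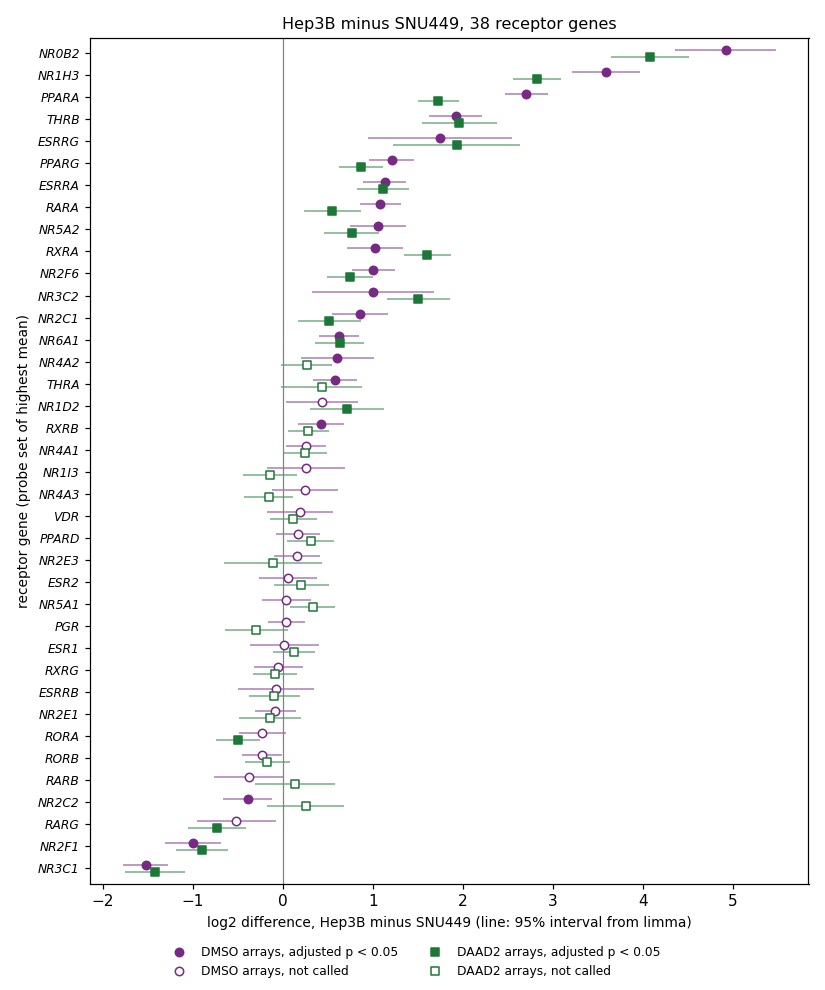
The horizontal axis gives the log2 difference, Hep3B minus SNU449, for 38 receptor genes listed down the page. Circles are DMSO arrays and squares DAAD2 arrays, filled where the adjusted p was under 0.05, with 95% intervals. NR0B2 (4.92 with DMSO) lies at one end and NR3C1 (−1.52 with DMSO) at the other.

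Genes that act with these receptors were read from 10 lists of coregulators, ligand enzymes and targets. Of all genes, 21.4% were called higher in Hep3B with DMSO and 19.4% lower. A list count near these shares does not set that list apart. With DMSO, bile acid genes (13 measured) were higher in Hep3B for 7 and lower for 1, with KLB, the FGF19 co-receptor, higher by 5.88 ± 0.09 and the bile acid exporter subunit SLC51B by 2.95 ± 0.17. Of 11 LXR targets, 6 were higher and 1 lower: SMPDL3A was higher by 4.84 ± 0.17 and ABCA1, a cholesterol exporter, lower by −1.12 ± 0.12. Of 12 PPAR targets, 4 were higher and 2 lower, among them ACSL1 at 4.91 ± 0.11 and FABP1 at 4.32 ± 0.13, both handling fatty acids. The median difference was 0.32 for the bile acid list, 0.47 for the LXR list and 0.09 for the PPAR list, beside −0.01 for all genes. FABP1 and several bile acid genes are typical of hepatocytes, whose markers differed between the lines as given above, and the part of that difference in these lists was not tested.

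Drug metabolism, vitamin D and glucocorticoid genes were called in both directions with DMSO, where 21.4% of all genes were called higher and 19.4% lower. Of 9 targets of the xenobiotic receptors PXR and CAR, 2 were higher in Hep3B and 4 lower, with the sulfotransferase SULT2A1 higher by 5.51 ± 0.12, and the drug exporters ABCB1 lower by −5.11 ± 0.17 and ABCC2 by −2.46 ± 0.14. CYP24A1, which degrades vitamin D, was lower by −4.17 ± 0.33, in a list of 4 with 1 higher and 2 lower. Of 10 glucocorticoid targets, 2 were higher and 3 lower, with TSC22D3 higher by 2.07 ± 0.19 and SGK1 lower by −1.29 ± 0.12. The list medians were −0.37 for the PXR and CAR list, −0.22 for vitamin D and 0.20 for glucocorticoid targets.

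Among 14 clock genes, 8 were higher in Hep3B and 3 lower, with NPAS2 higher by 2.85 ± 0.12 and PER2 by 2.44 ± 0.12, and BHLHE41 lower by −2.16 ± 0.16. Of 15 coregulators, 6 were higher and 6 lower: the coactivator PPARGC1A, which docks on PPAR and oestrogen-related receptors, was higher by 2.24 ± 0.10, and NCOA7 lower by −1.67 ± 0.12. Of 12 retinoid genes, 3 were higher, led by the retinol transporter STRA6 at 1.95 ± 0.28, and ALDH1A1 was lower by −1.21 ± 0.15. Of 7 thyroid genes, 2 were higher and none lower, DIO1, which activates thyroid hormone, by 0.56 ± 0.13 and the carrier TTR by 4.32 ± 0.17. DIO1 read 3.335 to 3.742 in Hep3B and 2.811 to 3.114 in SNU449, near or below the array medians. TTR is also 1 of the 7 hepatocyte markers. The list medians were 1.01 for the clock, −0.03 for coregulators, 0.20 for retinoid genes and 0.28 for thyroid genes. The shares to set beside these counts are again 21.4% higher and 19.4% lower of all genes.

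In Hep3B, DAAD2 changed no receptor past the threshold. Limma called 0 of 125 receptor probe sets, against 0.0% of all probe sets, and the lowest adjusted p among the receptors was 0.0770. When 12 arrays were fitted together, 1 was called higher and 0 lower. At an unadjusted p under 0.05, 6 were higher and 10 lower, where 9.53% and 5.47% of all probe sets were. Differences of the receptor probe sets ran between −0.70 and 0.65.

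The 3 receptor probe sets farthest from 0 in Hep3B were of NR0B2, ESRRG and NR1D2. NR0B2 read 8.90, 9.02 and 8.90 with DAAD2, against 9.51, 9.94 and 9.49 with DMSO. All DAAD2 arrays were below all DMSO arrays, with a difference of −0.70 ± 0.13 (limma adjusted p = 0.0905). NR1D2 (REV-ERB beta, a clock repressor) read 7.44, 7.45 and 7.16 with DAAD2, against 6.82, 6.70 and 6.67 with DMSO. The groups were separate here too, with a difference of 0.62 ± 0.11 (limma adjusted p = 0.0868). ESRRG on its dimmer probe set 207981_s_at read 6.62, 6.62 and 6.53 with DAAD2, against 6.05, 5.77 and 6.02 with DMSO. These arrays were separate as well, with a difference of 0.65 ± 0.10 (limma adjusted p = 0.0770), while its brightest probe set differed by 0.18 ± 0.44. When 1 probe set per gene was tested, the adjusted p became 0.0450 for NR1D2 and 0.0486 for NR0B2. NR3C2 differed by 0.48 ± 0.24, NR2C2 by 0.41 ± 0.14, RXRA by 0.26 ± 0.11, NR5A1 by 0.24 ± 0.10, NR4A3 by −0.39 ± 0.17, NR1H3 by −0.36 ± 0.15 and PPARA by −0.30 ± 0.09, none of them called.

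In SNU449, PPARA was the only receptor gene called with DAAD2, and the share of receptor probe sets called was near that of all probe sets. Limma called 1 of 125 receptor probe sets higher, against 1.04% of all probe sets, and 0 lower, against 0.417%. At an unadjusted p under 0.05, 8 receptor probe sets were higher and 1 lower, where 6.0% and 5.8% of all probe sets were. PPARA read 5.36, 5.34 and 5.32 with DAAD2, against 4.51, 4.74 and 4.73 with DMSO. The groups did not overlap, and the difference was 0.68 ± 0.11 (limma adjusted p = 0.0260). A second PPARA probe set, 223437_at, read 5.45, 5.33 and 5.52 with DAAD2, against 4.98, 4.73 and 4.46 with DMSO, a difference of 0.71 ± 0.15 that was not called (limma adjusted p = 0.0597).

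The PPARA call was lost in most fits without an array. It was kept in 1 of 6 fits without an array, the one without the second DAAD2 array, whose GAPDH 3′ to 5′ difference stood apart, and the adjusted p over all alternatives ran between 0.00179 and 0.116 while the difference stayed between 0.60 and 0.72. NR2C1, an orphan receptor, differed by 0.53 ± 0.16, PPARG by 0.51 ± 0.12 and NR5A2 by 0.47 ± 0.14 in SNU449, with arrays of the 2 groups separate and none called. RARA and NR1H3 differed by 0.46 ± 0.13 and 0.41 ± 0.14 and were not called either.

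**Figure D3:**
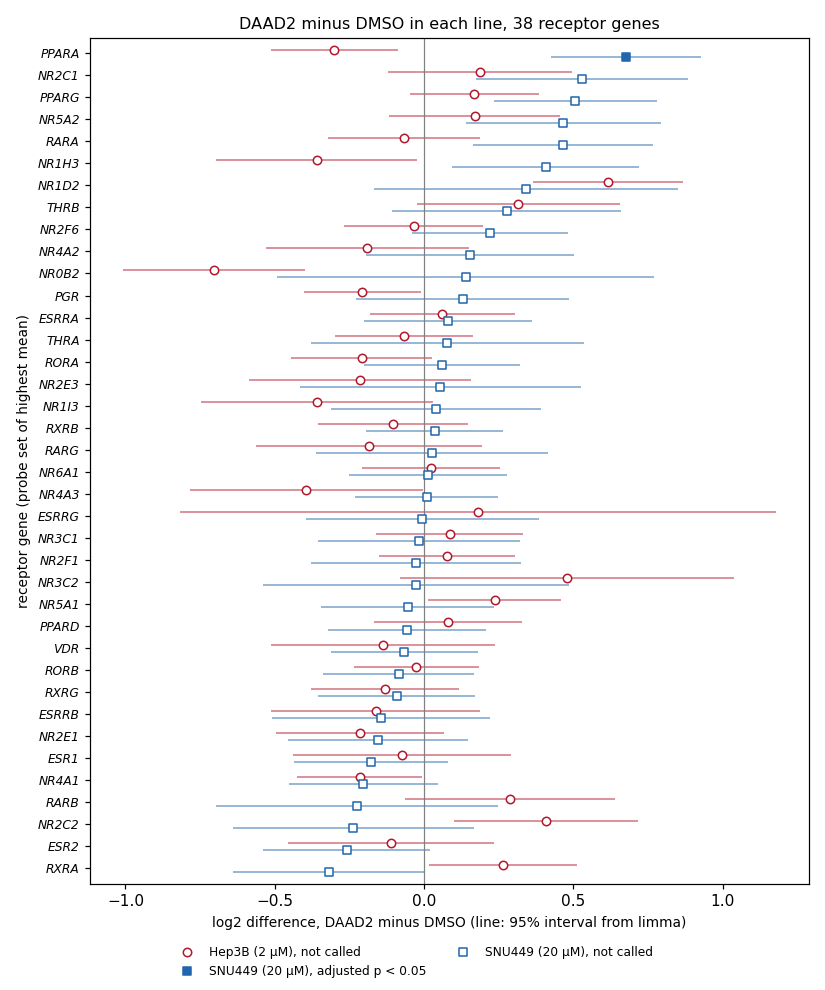
The horizontal axis gives the log2 difference, DAAD2 minus DMSO, for 38 receptor genes. Circles are Hep3B (2 μM) and squares SNU449 (20 μM), with 95% intervals. Only PPARA in SNU449 (0.68) is filled, the mark of an adjusted p under 0.05, and its Hep3B circle (−0.30) lies on the other side of 0.

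The response of PPARA to DAAD2 differed between the lines. The interaction, the treatment difference in Hep3B minus that in SNU449, was called lower for 2 of 125 receptor probe sets, against 0.797% of all probe sets, and higher for 0, against 1.21%. Both were PPARA. For 226978_at, Hep3B read 7.05, 7.0 and 7.15 with DAAD2 and 7.40, 7.42 and 7.28 with DMSO, so that its arrays lay lower with DAAD2, while those of SNU449 given above lay higher. The interaction was −0.98 ± 0.14 (limma adjusted p = 0.00419), and it was called in 12 of 12 fits without an array. For 223437_at it was −0.83 ± 0.18 (limma adjusted p = 0.0340), but in 9 of 12 fits without an array 226978_at was the only receptor probe set called lower. The third of the bright probe sets, 223438_s_at, was at −0.65 ± 0.18 and not called (limma adjusted p = 0.102), and the other 6 PPARA probe sets, near or below the array median, ran between −0.34 and 0.08.

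**Figure D4:**
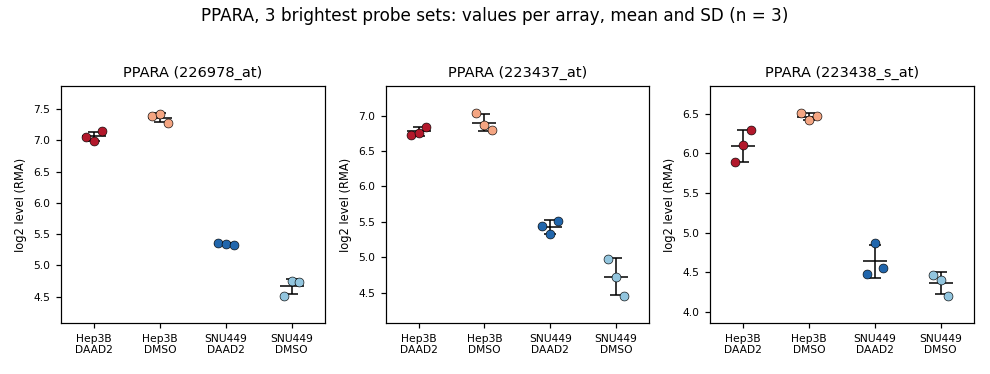
The 3 brightest PPARA probe sets are shown, with log2 RMA level on the vertical axis and the 4 groups on the horizontal axis. Points are arrays and black bars the mean and SD of 3 arrays. For 226978_at the SNU449 DAAD2 arrays (5.32 to 5.36) sit above the SNU449 DMSO arrays (4.51 to 4.74), and the Hep3B DAAD2 arrays (7.0 to 7.15) below the Hep3B DMSO arrays (7.28 to 7.42).

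At an unadjusted p under 0.05 the receptor probe sets counted 4 with a higher and 9 with a lower interaction, where 8.05% and 5.97% of all probe sets were. NR0B2 was at −0.84 ± 0.34, NR1H3 at −0.77 ± 0.21, RARA at −0.53 ± 0.17, NR2C2 at 0.65 ± 0.24 and RXRA at 0.58 ± 0.18, and none was called. The RXRA probe sets did not move alike, since 202426_s_at was at −0.05.

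A few targets of lipid-sensing receptors and a few clock genes rose in SNU449 with DAAD2, and no gene of the 10 lists was called lower there. In Hep3B no gene of the lists was called, but 0.0% of all genes were, so that count says nothing about the lists. Of all genes, 1.82% were called higher and 0.561% lower in SNU449. Of 12 PPAR targets, 2 rose. PLIN2, which coats lipid droplets, read 10.48, 10.72 and 10.46 with DAAD2, against 9.24, 9.20 and 9.28 with DMSO, a difference of 1.31 ± 0.11 (limma adjusted p = 0.00231). PDK4, which restrains glucose oxidation, read 5.45, 4.90 and 5.54 with DAAD2, against 4.45, 4.10 and 3.93 with DMSO, a difference of 1.13 ± 0.20 (limma adjusted p = 0.0312). Both sets of arrays were separate, and the other 10 PPAR targets were not called, with a list median of −0.12 beside 0.00 for all genes. In the same comparison 1 of 7 hepatocyte markers, FGB, was called higher by 1.56 ± 0.19 (limma adjusted p = 0.00947), and 1 of 6 mesenchymal markers, the collagen gene COL1A1, by 1.21 ± 0.19 (limma adjusted p = 0.0232). The part of these markers in the changes of PPARA and of the targets was not tested.

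Of 11 LXR targets, 2 rose in SNU449: SCD, a fatty acid desaturase, by 0.67 ± 0.11 and ABCA1 by 0.60 ± 0.12, with a list median of 0.01. Of 14 clock genes 3 rose, the repressor BHLHE40 by 1.36 ± 0.14, HLF by 1.35 ± 0.13 and NFIL3 by 0.67 ± 0.11, with a list median of 0.28. CYP3A5, a drug-metabolizing enzyme, rose by 1.67 ± 0.26 as the only called gene of 9 PXR and CAR targets. DHRS3, which reduces retinal, rose by 0.62 ± 0.12 as 1 of 12 retinoid genes, and DUSP1, a phosphatase gene induced by glucocorticoids, by 0.74 ± 0.14 as 1 of 10 glucocorticoid targets. Of coregulators, bile acid, vitamin D and thyroid genes, 0 were called in SNU449.

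The interaction was lower, meaning a smaller or opposite response in Hep3B, for 3 clock genes (HLF −1.30 ± 0.24, BHLHE40 −1.29 ± 0.18 and PER3 −1.08 ± 0.22), 2 PPAR targets (PDK4 −1.59 ± 0.25 and PLIN2 −1.08 ± 0.17) and 2 LXR targets (SREBF1 −1.19 ± 0.21 and SCD −0.62 ± 0.13). It was also lower for CYP3A5 (−1.88 ± 0.35), DHRS3 (−0.86 ± 0.18), DUSP1 (−0.87 ± 0.19) and ERRFI1 (−0.81 ± 0.15). On Hep3B arrays PDK4 read 2.78 to 3.53 and CYP3A5 3.27 to 4.02, with array medians of 3.71 to 3.85. At such levels a change in Hep3B may be missed. Of all genes 1.46% were called lower and 1.82% higher. MED1, the Mediator subunit that contacts nuclear receptors, was the 1 coregulator called, at 1.12 ± 0.18. It read 7.61, 7.69 and 7.34 in Hep3B with DAAD2, against 6.83, 6.72 and 6.92 with DMSO, and 7.53, 7.92 and 7.57 in SNU449 with DAAD2, against 8.11, 8.10 and 7.98 with DMSO. Its arrays were thus separate in both lines, higher with DAAD2 in Hep3B and lower in SNU449, with neither treatment difference called.

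**Figure D5:**
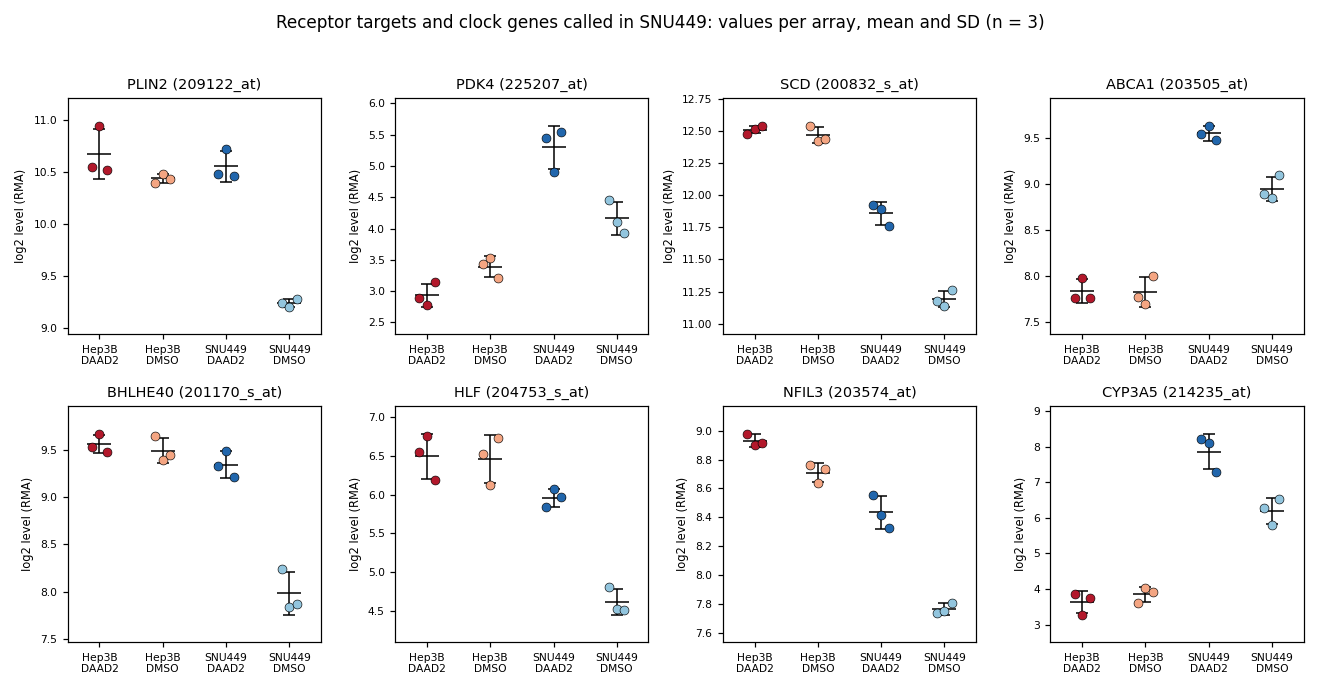
Each panel is a target or clock gene called in SNU449, with the log2 RMA level on the vertical axis and the 4 groups on the horizontal axis. Points are arrays and black bars the mean and SD of 3 arrays. In all 8 panels the SNU449 DAAD2 arrays lie above the SNU449 DMSO arrays, for PLIN2 at 10.46 to 10.72 above 9.20 to 9.28.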

How the data were processed

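Biotin-labelled RNA of 12 samples was hybridised to Affymetrix Human Genome U133 Plus 2.0 arrays. The deposited values are log2 levels per probe set, made by the authors with RMA (background correction, quantile normalization and summary of probes). The version of RMA was not stated. RMA levels depend on each probe's affinity, so levels of different probe sets were not compared as amounts of RNA. They were used to pick the brightest probe set of a gene, to average markers and to be set beside the array median. The number of arrays limits the precision. Groups came from the sample labels.

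The 62 control probe sets were removed and limma 3.58.1 in R 4.3.3 (lmFit and eBayes, two-sided) was fitted to the 6 arrays of each comparison, and to 12 arrays with 4 group means for the interaction. Benjamini-Hochberg adjustment ran over 54613 probe sets, dim ones included, and the threshold for a call was 0.05. With 3 arrays against 3, exact permutation can reach no p under 0.1, and it was not used. The platform annotation gives 41091 probe sets a single symbol, 1801 more than 1 symbol and 11721 no symbol, and only those with a single symbol were given a gene. The script was tested on simulated data.

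Members and lists were chosen with earlier results of these data known. Receptors were named by a fixed rule: up to 10 called genes per direction with the largest difference, else up to 4 with an unadjusted p under 0.05. Other receptors, named to complete a class, were added after their values were seen. From each list up to 4 called genes were named. Alternatives were a fit of 12 arrays, the replicate number as a block, removal of dim probe sets, median centring, quantile normalization, an intensity trend, 1 probe set per gene and leaving out each array.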

Additional observations from a re-analysis of the deposited data

Results flagged for a closer look

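PPARA stood out because its response to DAAD2 differed between Hep3B and SNU449 by a test of the difference itself. The treatment difference in Hep3B minus that in SNU449 was −0.98 for 226978_at and −0.83 for 223437_at on the log2 scale, both called by limma. The dose was 2 μM in Hep3B and 20 μM in SNU449, so line and dose cannot be told apart in this difference.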

How the results depend on the processing

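No named difference reversed its direction under any alternative. In Hep3B, DAAD2 called 1 receptor probe set higher when 12 arrays were fitted together, against 0, and 1 gene higher (NR1D2) and 1 lower (NR0B2) with 1 probe set per gene. Calls over all probe sets in Hep3B, 0 in either direction, became 123 higher and 31 lower with 12 arrays, 68 and 9 after centring, 2 and 4 after quantile normalization, 113 and 24 with the intensity trend, 178 and 42 with 1 probe set per gene, and 5 and 1 without the third DAAD2 array. In SNU449, the 1 receptor probe set called higher became 3 with 12 arrays, 0 with the replicate number as a block, 0 with the intensity trend and 0 to 2 when an array was left out. The 570 higher and 228 lower calls over all probe sets in SNU449 became 1163 and 687 with 12 arrays and 204 and 58 with the block, the lower calls became 132 after centring, and without an array the counts were as low as 93 and 11, with 573 lower calls without the second DAAD2 array. The interaction called 2 receptor probe sets lower, 4 after quantile normalization, 1 with the intensity trend and 1 to 3 without an array, and 0 higher, with 0 to 1 without an array. Its calls over all probe sets, 661 higher and 435 lower, ran without an array between 211 and 1602 higher and between 223 and 719 lower, both maxima without the second SNU449 DAAD2 array. PPARA (226978_at) in SNU449 had an adjusted p of 0.0806 with the block and 0.0561 with the trend. PPARG in SNU449 was called with 12 arrays (adjusted p = 0.0164). NR2C2, called lower in Hep3B with DMSO, was not called with 12 arrays (adjusted p = 0.107), after centring (0.0636) or with the trend (0.0515). The receptor counts of both line comparisons stayed within 1.5 times under every alternative run, while the 7912 higher and 8069 lower calls over all probe sets with DMSO became 4433 and 4104, and the 8390 and 7011 with DAAD2 became 4580 and 3707, where 1 probe set per gene left fewer to test. Deviations from the group means of arrays with the same replicate number had correlations of −0.27 to 0.09 within a line. Between the lines they were 0.02 to 0.35. These values have no reference to be judged by, so they cannot settle whether the numbers pair the arrays, and the labels state no pairing. The block changed no other call of a named receptor.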

Other observations

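NR1D1, the clock repressor REV-ERB alpha, was measured only on 3 probe sets that it shares with THRA, which lies on the opposite strand of the same locus. The brightest of them, 31637_s_at, averaged 7.21 ± 0.16 in Hep3B with DAAD2 and 7.19 ± 0.25 in Hep3B with DMSO, and 7.5 ± 0.18 in SNU449 with DAAD2 and 7.45 ± 0.02 in SNU449 with DMSO (SD, n = 3 each). None of the 3 was called in any comparison, and the share of each gene in them cannot be told apart.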
